A study of Mus musculus with 7 samples.

Results

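The collagen genes examined here are the protein-coding mouse genes whose symbol has the form Col, a number, a and a number, without Col17a1. They number 43 of the 52740 identifiers in the count table. All 43 had a count in at least 1 library, and 42 passed the filter on low counts and were among the 16990 genes tested, the exception being Col6a4. RNA of retinal pigment epithelium (RPE), the pigmented cell layer behind the photoreceptors, was sequenced from 4 WT mice (females F1, F2 and F3 and male M1) and 3 LC3b-/- mice (females F1 and F3 and male M). All mice were 24 months old, each gave 1 library, and no treatment is named for either group. The purchased WT strain is C57BL6/J and the knockout strain is B6;129P2-Map1Lc3btm1Mrab/J, which lacks LC3b in all cells, so strain background and genotype cannot be told apart. The cells were released by enzymes from eyecups, and the libraries are bulk samples. In bulk samples, fewer cells of a type and less RNA per cell cannot be told apart.

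Collagens are triple helices of 3 chains, and each chain is the product of its own gene. Fibrillar collagens build the cross-linked fibrils of stroma, while type IV and type VIII collagens form sheet-like networks, and types XV and XVIII carry sugar chains and sit at basement membranes. RPE rests on Bruch membrane, a layered matrix shared with the choroidal vessels, in which the basement membranes of the epithelium and of the endothelium enclose layers of fibrillar collagen and elastin. The genes were therefore grouped as basement and Bruch membrane collagens (10 genes), fibrillar collagens (11), beaded filament collagens of type VI (6), fibril-associated collagens (9) and transmembrane and other collagens (7).

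Libraries held 24495952 to 35616134 counts, of which collagen genes took 0.363% to 0.583%. Levels are given as CPM, a gene's counts relative to its library's total on edgeR's TMM scale. Values per library always stand in the order F1, F2, F3, M1 for WT and F1, F3, M for LC3b-/-. Levels of different genes are compared as CPM per kilobase of exonic length, where the length covers the exons of every annotated transcript. The targeted gene Map1lc3b was at 104 to 130 CPM in WT and 6.76 to 8.33 CPM in LC3b-/-, which fits the labels. The 12 RPE markers summed to 33464 to 51903 CPM in WT and 15093 to 31222 CPM in LC3b-/-, and all 12 were detected in each library. The 10 markers of stratified ocular surface epithelium summed to 6.74 to 2148 CPM in WT and 2350 to 18831 CPM in LC3b-/-, with Dsg3 at 0 in WT F3. Of 10 photoreceptor markers, none differed at an unadjusted p under 0.05, with sums of 274 to 20731 CPM in WT and 95.8 to 7045 CPM in LC3b-/-. These other cell types' part in the collagen values was not tested.

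No collagen gene was called different between LC3b-/- and WT under the study's thresholds (adjusted p under 0.05, fold change 1.5 or more) with edgeR's quasi-likelihood test and Benjamini-Hochberg adjustment over all 16990 genes, of which 0.235% were called. The smallest adjusted p was 0.103, for Col6a3. Fitted log2 fold changes of LC3b-/- over WT were above 0 for 31 genes and below 0 for 11, where all genes tested divided into 8699 and 8291. Their median was 0.60 beside 0.01 over all genes tested, and ran from 0.46 without WT M1 to 1.09 without WT F1. At an unadjusted p under 0.05, 6 of 42 collagen genes were higher, beside 13.5% of all genes, and 2 were lower, beside 10.6%. Scaled by library size alone, these counts were 6 and 1 for collagens, and 2607 higher and 1299 lower over all genes in place of 2293 and 1796. The 7 libraries did not overlap between groups for 4 genes that were higher in LC3b-/- (Col4a1, Col4a2, Col5a2 and Col6a3), beside 12.0% of all genes. Col9a3 alone was lower in LC3b-/- without overlap, beside 10.3% of all genes. The study applied these thresholds to DESeq2 and not to edgeR. Here DESeq2's Wald test called 5 collagen genes, Col4a1, Col5a2, Col6a3 and Col25a1 as higher and Col9a3 as lower, where it called 9.80% of the genes it tested. Without WT F1, edgeR called 2 collagen genes, Col5a1 and Col6a3 (adjusted p = 0.0469 for Col6a3), where it called 215 of all 16753 genes tested. In that run 21 collagen genes had an unadjusted p under 0.05, 20 higher and 1 lower, where 3012 of all genes were higher and 1777 lower, so the counts over all genes grew as well. The collagen count was 4 without WT F3, where 1641 of all 17045 genes were higher and 1337 lower, and 5 without WT M1, without LC3b-/- F1 or without LC3b-/- F3. All p-values set a group difference against the spread between mice, over these 7 mice or fewer. An exact two-sided permutation test over the 35 ways of dividing the libraries cannot give a p below 0.0286.

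**Figure D1:**
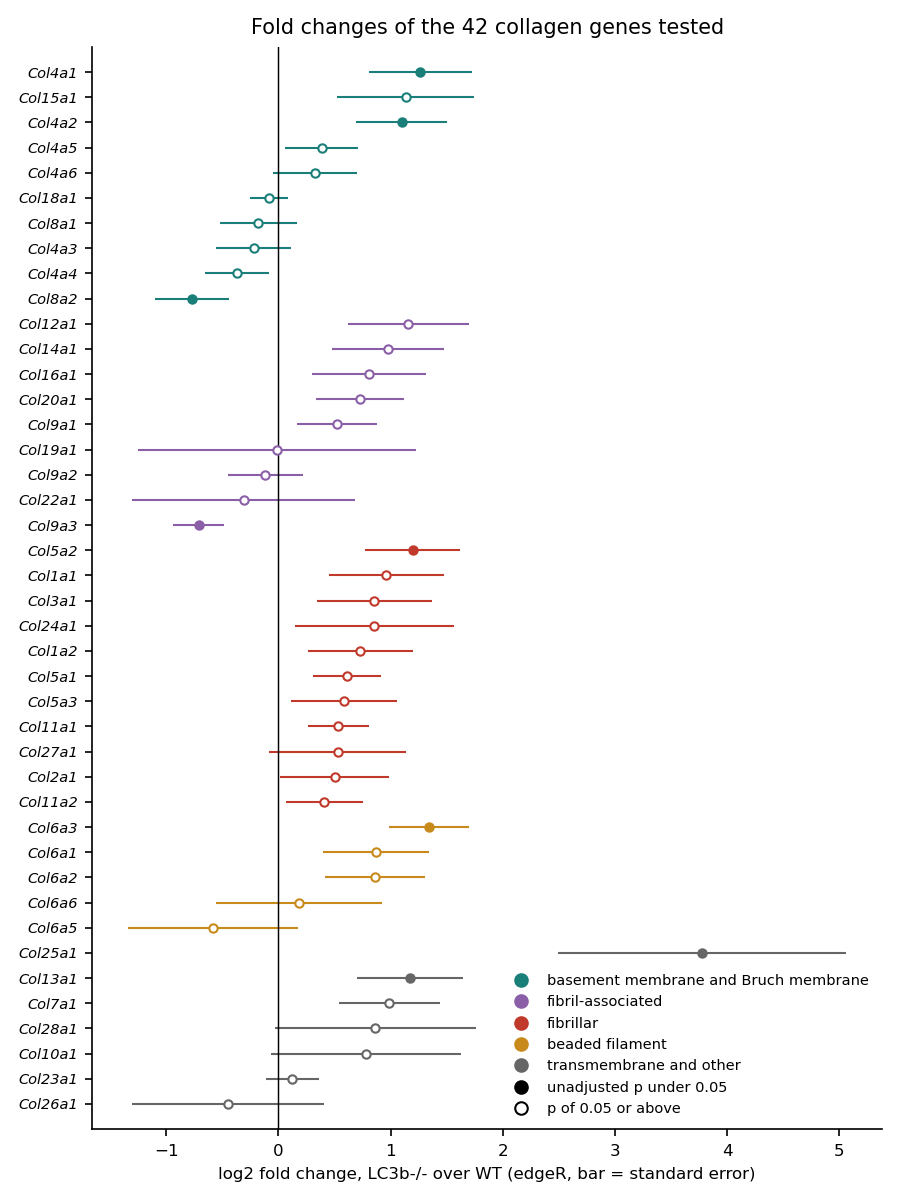
Fitted log2 fold changes of LC3b-/- over WT (horizontal axis) for the 42 collagen genes tested, by class, with bars of 1 standard error and filled points where the unadjusted p was under 0.05. All 11 fibrillar genes lie to the right of 0, while the 10 basement and Bruch membrane genes lie 5 on each side.

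The most abundant collagen mRNA in these libraries was Col8a2, a chain of the network-forming type VIII collagen, at 279 CPM per kilobase over all libraries. It was followed by Col9a3 (146 CPM per kilobase), Col18a1 (88.7 CPM per kilobase) and Col8a1, the other type VIII chain (85.8 CPM per kilobase). The next gene, Col1a1, was at 20.1 CPM per kilobase. Picked after their levels were seen, these 4 genes together held 65.0% to 84.3% of collagen CPM in WT and 54.5% to 61.9% in LC3b-/-.

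**Figure D2:**
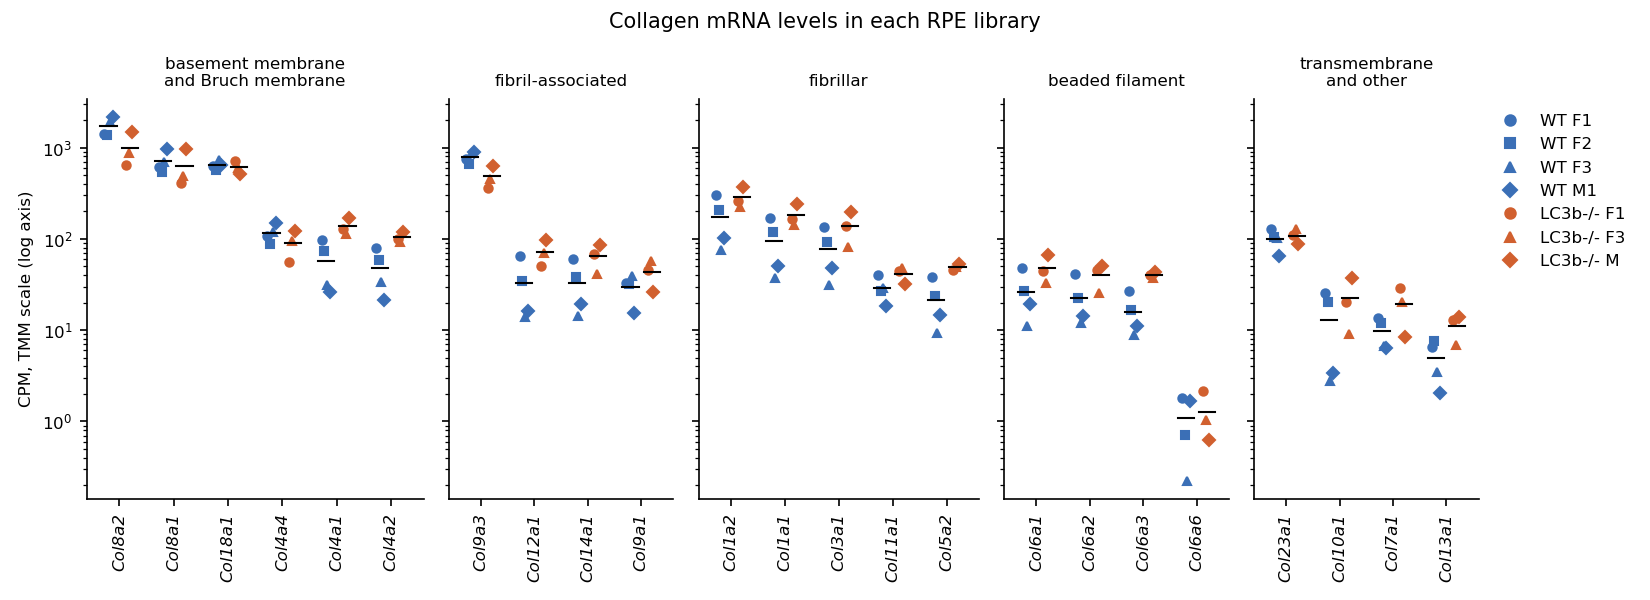
CPM on a log axis (vertical) of 23 collagen genes, by class, with 1 point per library, marker shape for the mouse and a black line at the group mean. Col8a2, Col8a1, Col18a1 and Col9a3 stand above the others in every library, and WT libraries spread more widely than LC3b-/- libraries for Col5a2 and Col6a3.

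The stretches of 250 bases before the RefSeq start sites (GRCm39) of both type VIII chains and of the fibrillar chain Col3a1 are shown to set the abundant network collagens beside a stromal fibrillar collagen, and were chosen after the levels were seen. Each is written 5′ to 3′ on the strand of its gene, and capitals mark the GC box letters GGGCGG and the TATA box letters TATAAA, each on either strand. Col8a2 is at chr4:126180337-126180586 on the plus strand, Col8a1 at chr16:57575101-57575350 on the minus strand and Col3a1 at chr1:45350448-45350697 on the plus strand.
Col8a2: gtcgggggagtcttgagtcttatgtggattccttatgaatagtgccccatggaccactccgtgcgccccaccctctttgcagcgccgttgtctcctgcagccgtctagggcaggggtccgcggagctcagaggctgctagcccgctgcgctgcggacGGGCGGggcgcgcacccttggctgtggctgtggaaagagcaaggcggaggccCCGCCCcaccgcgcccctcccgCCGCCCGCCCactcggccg
Col8a1: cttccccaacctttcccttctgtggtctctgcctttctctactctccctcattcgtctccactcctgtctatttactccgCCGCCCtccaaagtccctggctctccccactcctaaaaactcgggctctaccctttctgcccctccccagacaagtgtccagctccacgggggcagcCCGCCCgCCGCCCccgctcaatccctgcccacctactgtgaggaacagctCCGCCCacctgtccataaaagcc
Col3a1: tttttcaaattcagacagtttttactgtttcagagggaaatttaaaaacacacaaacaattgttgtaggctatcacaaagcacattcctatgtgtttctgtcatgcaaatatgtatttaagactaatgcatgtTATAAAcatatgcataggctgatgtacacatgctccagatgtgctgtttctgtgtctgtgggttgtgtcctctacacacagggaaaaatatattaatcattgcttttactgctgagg
Both type VIII stretches held 4 GC boxes, at 70.0% and 60.8% G and C for Col8a2 and Col8a1, while the Col3a1 stretch held none, with 1 TATA box and 35.2% G and C. The last 28 bases of the Col8a2 stretch lie in an annotated untranslated region of the transcript, and hold GC boxes that share letters. RefSeq stretches matched 34 of the 43 collagen genes by symbol. GC boxes occurred in 21 of these 34 (61.8%) and in 32.9% of 27025 genes with a stretch of this length. Those 27025 were not limited to protein-coding genes, as the collagen genes were. CCAAT on either strand occurred in 32.4% of collagen genes and 34.5% of all, and TATAAA in 11.8% and 13.0%. These matches describe letters and not factor binding, and were not counted by class, so Col3a1 does not stand for other fibrillar collagens.

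Basement and Bruch membrane collagens divided by chain. Col8a2 (ENSMUSG00000056174, chr4:126180559-126208123, plus strand) was at 1402, 1389.5, 1901 and 2159 CPM in WT and at 649, 864 and 1492 CPM in LC3b-/-. The male LC3b-/- library was within the WT range and both females were below it, and the male was the highest library in each genotype. The log2 fold change was −0.77 (SE 0.33, unadjusted p = 0.0488, adjusted p = 0.206 by edgeR), and its unadjusted p ran from 0.00467 to 0.138 as each library was left out. With sex as a covariate it was −0.90 (unadjusted p = 0.00484, adjusted p = 0.0689 by edgeR). Over females only it was −1.05 (unadjusted p = 0.00733, adjusted p = 0.111 by edgeR). Col8a1 (ENSMUSG00000068196, chr16:57444621-57575100, minus strand) was at 613, 547, 699 and 971 CPM in WT and 409, 492 and 972 CPM in LC3b-/-. Its groups overlapped, with a log2 fold change of −0.18 (SE 0.34, adjusted p = 0.779), and −0.32 with sex as a covariate (adjusted p = 0.254 by edgeR).

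In both genotypes the libraries had the same order for Col8a2 as for the summed RPE markers. It ran from F2 over F1 and F3 to M1 in WT and from F1 over F3 to M in LC3b-/-. Col8a1, Col4a3 and Col4a4, whose groups overlapped, had that order as well. Of the 12 RPE markers 11 had a fitted value below 0, with a median log2 fold change of −0.88, and 8 were lower at an unadjusted p under 0.05, beside 10.6% of all genes. None of the 12 was called by edgeR (smallest adjusted p = 0.103). The part of the RPE markers' difference in that of Col8a2 was not tested.

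Col18a1, whose product releases the antiangiogenic fragment endostatin, was at 627, 563, 736 and 641 CPM in WT and 704, 600.5 and 511 CPM in LC3b-/-. LC3b-/- F1 and F3 lay within the WT range and LC3b-/- M below it, with a log2 fold change of −0.08 (SE 0.17, adjusted p = 0.794). Col15a1, the other collagen with sugar chains in this class, was at 5.61 to 33.4 CPM in WT and 26.7 to 51.1 CPM in LC3b-/- (log2 fold change 1.13, SE 0.61, adjusted p = 0.294).

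Type IV collagen has 6 chains, of which α1 and α2 form the network of nearly all basement membranes and α3, α4 and α5 that of specialised ones. Col4a1 (ENSMUSG00000031502, chr8:11248423-11362826, minus strand) was at 96.3, 73.3, 31.6 and 25.9 CPM in WT and at 129, 112 and 168 CPM in LC3b-/-. Col4a2 (ENSMUSG00000031503, chr8:11362471-11499287, plus strand) was at 79.8, 58.1, 34.0 and 21.6 CPM in WT and at 98.8, 92.0 and 120.1 CPM in LC3b-/-. For both chains every LC3b-/- library was above every WT library, and WT F1 lay nearest to them. The log2 fold changes were 1.27 (SE 0.46, unadjusted p = 0.0258, adjusted p = 0.160) for Col4a1 and 1.10 (SE 0.41, unadjusted p = 0.0284, adjusted p = 0.166) for Col4a2, by edgeR. The exact two-sided permutation p on log2 CPM was 0.0571 for each.

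Col4a3 (chr1:82564642-82699780, plus strand) and Col4a4 (chr1:82426144-82564800, minus strand), the α3 and α4 chains, did not follow that pattern. Col4a4 was at 109, 87.3, 119.6 and 151 CPM in WT and 55.9, 94.5 and 121 CPM in LC3b-/-, with a log2 fold change of −0.37 (SE 0.29, adjusted p = 0.454). Col4a3 was at 86.2 to 128 CPM in WT and 44.9 to 130.4 CPM in LC3b-/- (log2 fold change −0.22, adjusted p = 0.720). The X-linked α5 and α6 chains, Col4a5 and Col4a6, had overlapping groups and log2 fold changes of 0.39 and 0.33. Whether the fold changes of the α1 and α2 chains differ from those of α3 and α4 was not tested. Within each of these 2 autosomal pairs the annotated spans overlap on opposite strands. The kit keeps the strand, but the strand setting of the counting is not stated, so reads in the overlap could be shared.

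None of the 10 endothelial markers was called by edgeR (smallest adjusted p = 0.139). All 10 had a fitted value above 0 (median log2 fold change 0.94). Of them 3 had an unadjusted p under 0.05, beside 13.5% of all genes higher at that p, and 6 were higher without overlap, beside 12.0%. Their sum was 401 to 1251 CPM in WT and 1395 to 1699 CPM in LC3b-/-, and Pecam1 was present in every library, at 32.5 to 93.2 CPM in WT and 122 to 129.6 CPM in LC3b-/-. The order of the WT libraries was that of Col4a1, from M1 over F3 and F2 to F1, while the order of the LC3b-/- libraries was the reverse of it. The part of endothelial RNA in the type IV values was not tested. Over the class of 10, 5 genes had a fitted value above 0 and 5 below, with a median log2 fold change of 0.12, which ran from 0.03 to 0.32 as each library was left out, the highest without LC3b-/- M. The summed level of the class was 2880 to 4153 CPM in WT and 2241 to 3619 CPM in LC3b-/-.

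All 11 fibrillar collagens had a fitted value above 0, with log2 fold changes from 0.41 to 1.20 and a median of 0.61. Only 1 of them, Col5a2, had an unadjusted p under 0.05, beside 13.5% of all genes higher at that p. The median ran from 0.50 without WT M1 to 1.15 without WT F1. Col1a1 and Col1a2, the 2 chains of type I collagen, were the most abundant per length. Col1a1 was at 169, 118.5, 37.0 and 50.4 CPM in WT and at 163, 143 and 241 CPM in LC3b-/-. Col1a2 was at 302, 208, 75.2 and 103 CPM in WT and at 261, 222 and 374 CPM in LC3b-/-. WT F1 reached the LC3b-/- range for both chains while every other WT library lay below it. The log2 fold changes were 0.96 (SE 0.51, adjusted p = 0.292) for Col1a1 and 0.73 (SE 0.47, adjusted p = 0.373) for Col1a2.

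Col3a1, the homotrimeric type III collagen of soft stroma and vessel walls, was at 135, 92.1, 31.5 and 47.5 CPM in WT and at 138, 81.2 and 197 CPM in LC3b-/- (log2 fold change 0.86, SE 0.51, adjusted p = 0.341). Col5a2 (ENSMUSG00000026042, chr1:45412554-45542442, minus strand), a chain of the type V collagen that sets fibril diameter, was at 38.0, 23.6, 9.25 and 14.7 CPM in WT and at 45.6, 48.6 and 53.0 CPM in LC3b-/-. The groups did not overlap, and the LC3b-/- libraries lay close together. Its log2 fold change was 1.20 (SE 0.43, unadjusted p = 0.0242, adjusted p = 0.157 by edgeR), and DESeq2 gave an adjusted p of 0.0481. Col11a1, a chain of the type XI collagen found with type II in cartilage and vitreous, was at 18.2 to 40.6 CPM in WT and 32.1 to 48.4 CPM in LC3b-/- (log2 fold change 0.53, adjusted p = 0.270). The remaining 6 fibrillar genes had log2 fold changes of 0.41 (Col11a2) to 0.86 (Col24a1), and all overlapped between groups.

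The type VI collagens form beaded filaments next to basement membranes, and Col6a3, the chain that joins α1 and α2, had the smallest p of any collagen gene. Col6a3 (ENSMUSG00000048126, chr1:90693645-90771780, minus strand) was at 26.8, 16.5, 8.80 and 11.1 CPM in WT and at 40.1, 36.8 and 43.8 CPM in LC3b-/-. All LC3b-/- libraries were above all WT libraries. Its log2 fold change was 1.35 (SE 0.36, unadjusted p = 0.00617, adjusted p = 0.103 by edgeR), and DESeq2 gave an adjusted p of 0.00643. Col6a1 was at 47.9, 27.0, 11.1 and 19.2 CPM in WT and at 44.7, 33.0 and 66.7 CPM in LC3b-/-, and Col6a2 followed closely (log2 fold changes 0.87 and 0.86, adjusted p = 0.298 and 0.280). WT F1 overlapped the LC3b-/- range for both. The genes for the alternatives to the α3 chain were low. Col6a5 and Col6a6 had 6 to 61 counts per library and log2 fold changes of −0.58 and 0.18, with overlapping groups. Col6a4 had 3, 0, 2 and 0 counts in WT and 5, 21 and 6 counts in LC3b-/-, and was not tested.

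None of the 10 fibroblast markers was called by edgeR (smallest adjusted p = 0.108). Of these, 8 had a fitted value above 0 (median log2 fold change 0.37). At an unadjusted p under 0.05, 1 of them, Clec3b, was higher, beside 13.5% of all genes. The 10 markers summed to 1801, 1281, 967 and 1031 CPM in WT and 2302, 1341 and 1909 CPM in LC3b-/-, and all 10 were detected in each library. The fibrillar collagens summed to 789, 537, 233 and 273 CPM in WT and 738, 654 and 990 CPM in LC3b-/-. WT libraries had one order in both sums, from F1 over F2 and M1 to F3, while LC3b-/- F1 was highest for the markers and LC3b-/- M for the collagens. The 9 pericyte and smooth muscle markers summed to 316 to 888 CPM in WT and 642 to 844 CPM in LC3b-/-. The 9 markers of scleral stroma and cartilage summed to 5.73 to 26.1 CPM in WT and 24.3 to 40.9 CPM in LC3b-/-, with Snorc at 0 in every library and Acan at 0 in WT F3. The part of these cell types in the fibrillar and type VI values was not tested.

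**Figure D3:**
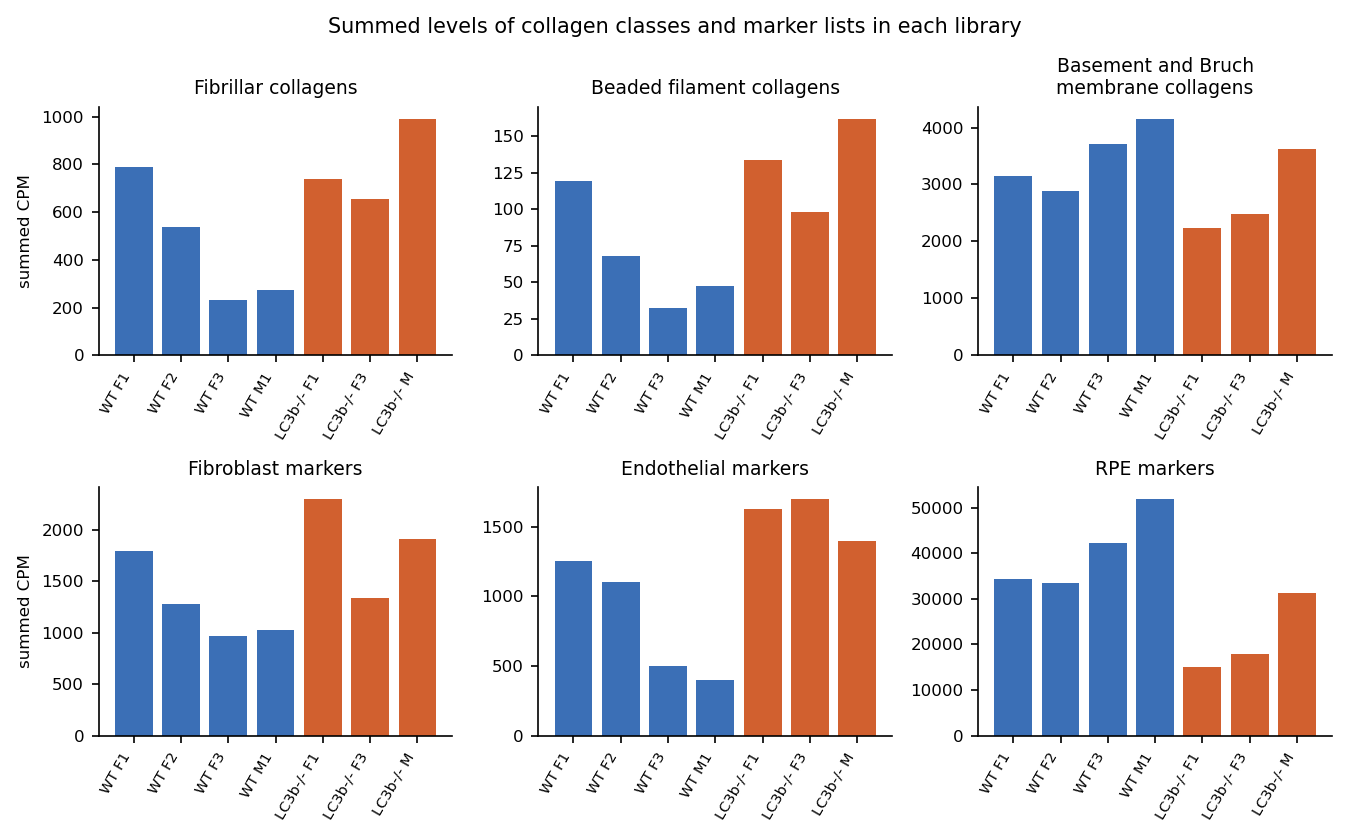
Summed CPM (vertical axis, from 0) per library of 3 collagen classes (top) and of fibroblast, endothelial and RPE markers (bottom), with WT in blue and LC3b-/- in orange. Fibrillar collagens ran from 233 to 789 CPM in WT and from 654 to 990 CPM in LC3b-/-, and RPE markers were lower in every LC3b-/- library than in any WT library.

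The fibril-associated collagens, which bind to the surface of fibrils, held the only collagen gene that was lower in LC3b-/- without overlap. Col9a3 (ENSMUSG00000027570, chr2:180239583-180264063, plus strand), the α3 chain of type IX collagen, was at 756, 664, 863 and 884 CPM in WT and at 363, 455 and 635 CPM in LC3b-/-. The highest LC3b-/- library lay just below the lowest WT library. The log2 fold change was −0.71 (SE 0.23, unadjusted p = 0.0152, adjusted p = 0.134 by edgeR), the exact two-sided permutation p was 0.0286, the smallest it can give, and DESeq2 gave an adjusted p of 0.0234. As for Col8a2, Col8a1, Col4a3 and Col4a4, the libraries had the order of the summed RPE markers in both groups.

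Type IX collagen is built of one chain each of α1, α2 and α3, yet its chains were at unequal mRNA levels. Per kilobase Col9a3 was at 146 CPM, Col9a2 at 10.7 CPM and Col9a1 at 6.99 CPM over all libraries. Col9a1 was at 32.7, 32.1, 39.2 and 15.4 CPM in WT and 45.2, 57.5 and 25.9 CPM in LC3b-/- (log2 fold change 0.52, adjusted p = 0.404), and Col9a2 had a log2 fold change of −0.12. Their unadjusted p-values by edgeR were 0.188 and 0.737, with overlapping groups.

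Col12a1 and Col14a1, which coat type I fibrils, were at 13.9 to 65.2 and 14.3 to 60.8 CPM in WT and at 50.3 to 96.6 and 41.0 to 86.5 CPM in LC3b-/-. Their log2 fold changes were 1.16 (SE 0.54, adjusted p = 0.237) and 0.98 (SE 0.50, adjusted p = 0.276), and WT F1 overlapped the LC3b-/- range for both. Over the 9 fibril-associated genes, 5 had a fitted value above 0 and 4 below, with a median log2 fold change of 0.52.

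The transmembrane and other collagens had 6 of 7 fitted values above 0. Col23a1, a membrane-bound collagen and the most abundant of them, was at 64.6 to 127 CPM in WT and 86.7 to 127 CPM in LC3b-/- (log2 fold change 0.12, SE 0.24, adjusted p = 0.779). Col13a1, another membrane-bound collagen, was at 6.58, 7.58, 3.52 and 2.04 CPM in WT and 12.8, 6.80 and 13.9 CPM in LC3b-/-. LC3b-/- F3 lay within the WT range, and the log2 fold change was 1.18 (SE 0.47, unadjusted p = 0.0393, adjusted p = 0.188). Col7a1, the collagen of the anchoring fibrils below stratified epithelia, was at 13.7, 11.9, 6.78 and 6.30 CPM in WT and 29.0, 20.3 and 8.42 CPM in LC3b-/- (log2 fold change 0.99, SE 0.45, adjusted p = 0.227). From F1 over F3 to M the LC3b-/- libraries were in the same order for Col7a1 as for the summed ocular surface markers. In WT, M1 was the highest library for those markers, at 2148 CPM, and the lowest for Col7a1. Their part in this value was not tested.

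Col10a1, the collagen of hypertrophic cartilage, was at 2.77 to 25.5 CPM in WT and 9.03 to 37.6 CPM in LC3b-/- (log2 fold change 0.78, adjusted p = 0.603). Col25a1, a neuronal transmembrane collagen, was low and uneven, with 3, 12, 16 and 1 counts in WT and 5, 406 and 71 counts in LC3b-/-. LC3b-/- F1 was within the WT range, and a single library held most of the counts, so its log2 fold change of 3.78 (SE 1.28, unadjusted p = 0.0197, adjusted p = 0.146) rests on LC3b-/- F3 and M.

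Ratios between chains were computed per kilobase for 10 pairs from the same or related collagen types. The ratio of Col8a1 to Col8a2 was 0.282, 0.253, 0.237 and 0.290 in WT and 0.406, 0.367 and 0.419 in LC3b-/-. Every LC3b-/- library was above every WT library, by a mean of 0.59 on the log2 scale. The ratio of Col1a1 to Col1a2 was 1.08, 1.10, 0.947 and 0.946 in WT, and 1.21, 1.24 and 1.24 in LC3b-/-, a mean difference of 0.28 on the log2 scale. For each of these pairs the exact two-sided permutation p was 0.0286, the smallest it can give, and 0.143 after Benjamini-Hochberg adjustment over the 10 pairs. The groups did not overlap for either pair. With only these pairs at the smallest p, 0.143 was the lowest adjusted value possible, so the correction could not decide.

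The ratio of Col5a1 to Col5a2 was 1.15 to 2.71 in WT and 1.00 to 1.09 in LC3b-/-, also without overlap (exact permutation p = 0.0571, adjusted p = 0.190). The ratio of Col9a3 to Col9a1 was 25.9, 23.2, 24.7 and 64.4 in WT and 8.99, 8.86 and 27.4 in LC3b-/-, with overlapping groups (exact permutation p = 0.143, adjusted p = 0.238). The 2 autosomal type IV pairs stayed between 0.894 and 1.35 in all 7 libraries, so α1 and α2, and likewise α3 and α4, were at similar levels per length in each mouse. Exact permutation p-values for the other pairs were 0.114 or above.

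**Figure D4:**
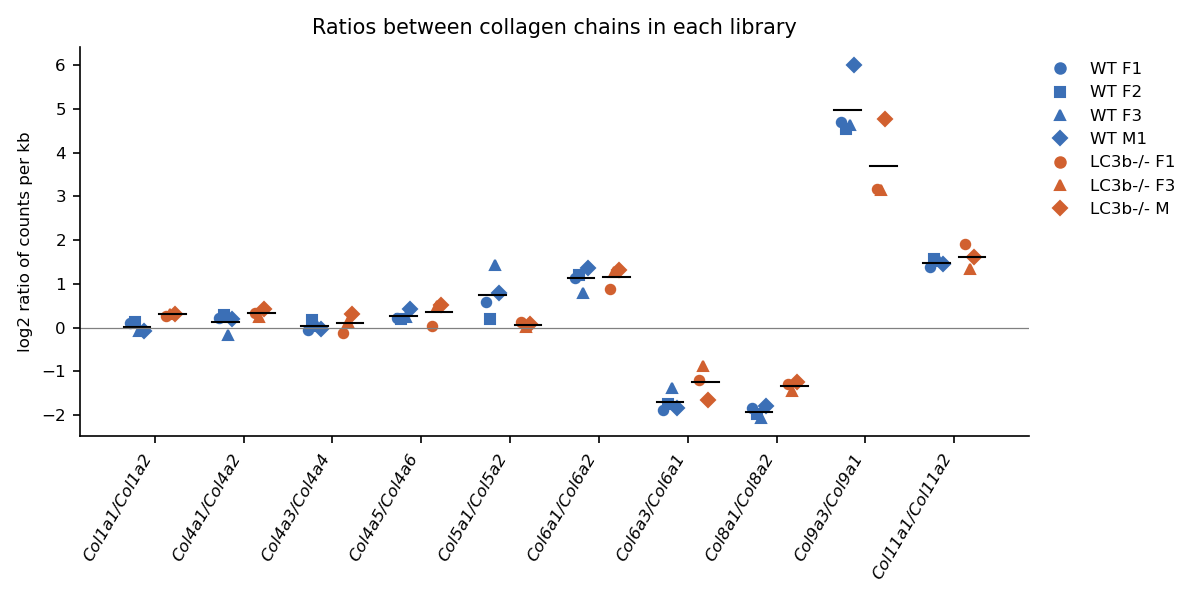
Log2 ratio of counts per kilobase (vertical axis) for 10 pairs of collagen chains, with 1 point per library, marker shape for the mouse and a black line at the group mean. The groups do not overlap for Col1a1/Col1a2, with LC3b-/- ratios of 1.21 to 1.24, or for Col8a1/Col8a2, with LC3b-/- ratios of 0.367 to 0.419, and also lie apart for Col5a1/Col5a2.

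Collagen chains are hydroxylated and folded in the endoplasmic reticulum, trimmed of their propeptides outside the cell, cross-linked, and bound by receptors and by laminin-based sheets. The 65 genes of these steps were counted in 4 lists, and 1 of the 63 tested was called by edgeR, beside 0.235% of all genes. Pcolce2, an enhancer of the proteinase that removes the C-terminal propeptide, was at 20.8, 21.1, 22.2 and 26.6 CPM in WT and at 72.4, 51.3 and 47.1 CPM in LC3b-/-. It rose in LC3b-/-, with a log2 fold change of 1.33 (SE 0.18, adjusted p = 0.0480) and no overlap between groups. The call was lost without WT F2, F3 or M1 (edgeR adjusted p = 0.160, 0.161 and 0.0968) and without either LC3b-/- female (0.0937 for F1 and 0.197 for F3). It was also lost with the mouse number as a replicate block (0.121), which compares genotypes only within F1 and F3. In that order these runs called 18, 16, 20, 15, 11 and 0 of all genes, where the fit to all 7 libraries without a block called 40. Its relative Pcolce, which is far more abundant, was at 525 to 591 CPM in WT and 390.1 to 632 CPM in LC3b-/- (log2 fold change −0.22, adjusted p = 0.520).

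In the same list of cleavage and cross-linking genes, 4 of 14 tested were higher and 1 lower at an unadjusted p under 0.05. Of all genes, 13.5% were higher and 10.6% lower at that p. Tgm2, a cross-linking transglutaminase, was at 68.2 to 207 CPM in WT and 272 to 358 CPM in LC3b-/- without overlap (log2 fold change 1.27, adjusted p = 0.109). Loxl1, a lysyl oxidase tied to elastic fibres, had overlapping groups (log2 fold change −0.10, adjusted p = 0.770). Of 23 folding and modification genes, 4 were higher and none lower at an unadjusted p under 0.05, beside the same 13.5% and 10.6%. P3h2, a prolyl 3-hydroxylase that acts on type IV collagen, was at 15.3, 9.94, 7.49 and 9.53 CPM in WT and 33.6, 21.9 and 22.3 CPM in LC3b-/- (log2 fold change 1.29, SE 0.27, adjusted p = 0.0906). Creb3l1, a transcription factor that activates type I collagen genes, also had no overlap (log2 fold change 1.09, adjusted p = 0.164). The abundant chaperones and folding enzymes Serpinh1, P4hb and Ppib had log2 fold changes of 0.24, 0.33 and 0.06. Of these only P4hb had no overlap, at 248 to 259 CPM in WT and 276 to 389 CPM in LC3b-/- (adjusted p = 0.235 by edgeR).

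Among 11 collagen receptors tested, 2 were higher at an unadjusted p under 0.05, beside 13.5% of all genes. Itgb1, the β1 integrin shared by the collagen-binding integrins, was at 125 to 196 CPM in WT and 225 to 290.02 CPM in LC3b-/- (log2 fold change 0.80, SE 0.19, adjusted p = 0.0960). Adgrg1, an adhesion receptor for type III collagen, was at 14.1 to 38.3 CPM in WT and 44.7 to 57.6 CPM in LC3b-/- (log2 fold change 1.17, adjusted p = 0.119). The receptor kinases Ddr1 and Ddr2 had overlapping groups, with log2 fold changes of 0.17 and −0.10.

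Of the 15 other basement membrane components, 7 were higher and none lower at an unadjusted p under 0.05, beside 13.5% and 10.6% of all genes. The median log2 fold change of the 15 was 0.72. Lamb3, a laminin chain of stratified epithelia, was at 5.27, 7.71, 0.899 and 7.77 CPM in WT and 43.1, 22.0 and 11.3 CPM in LC3b-/-. The groups did not overlap, and the log2 fold change was 2.23 (SE 0.70, adjusted p = 0.130). The LC3b-/- libraries had the same order for Lamb3 as for the summed ocular surface markers. In WT, M1 was highest and F3 lowest for both, while F1 and F2 were in opposite order. The part of those markers in this value was not tested. Hspg2, the heparan sulfate proteoglycan perlecan, was at 52.8 to 146 CPM in WT and 152 to 162 CPM in LC3b-/- (log2 fold change 0.86, adjusted p = 0.196). Lamb2 and Nid2, a laminin chain and a nidogen, had overlapping groups and log2 fold changes of 0.44 and −0.36. DESeq2 called 8 of the genes in the 4 lists as higher, where it called 9.80% of all genes it tested in either direction.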

How the data were processed

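RPE mRNA of 7 mice was sequenced with a stranded polyA kit. Mouse names also hold a group number of unstated meaning that no WT and LC3b-/- mouse share, so it cannot be told apart from genotype. Within LC3b-/- the females share a group number and the male has another, so there it cannot be told apart from sex. The authors deposited estimated counts, made by salmon on GENCODE vM26 transcripts (GRCm39) and summed to genes with tximeta. These had no scaling for depth (0 columns unused), and were rounded to whole numbers for the fits. Totals were 24495952 to 35616134 counts. Identifiers were matched to GENCODE vM39 on the same build (51721 of 52740), and those without a match held 0.032% to 0.0436% of counts.

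edgeR 4.0.16 in R 4.3.3 was used with filterByExpr, TMM scaling and the quasi-likelihood test of LC3b-/- over WT without covariates, Benjamini-Hochberg over 16990 genes. Genes called had an adjusted p under 0.05 and changed 1.5 times or more (log2 0.585). Exact permutation tests were two-sided on log2 CPM (prior count 2). Code was tested on simulated data. Promoter stretches are from RefSeq. Alternatives were DESeq2 1.42.0, limma 3.58.1 voom with quality weights, DESeq2 size factors, library size alone, no filter, a minimum of 10 counts in all libraries, a sex term, the females alone, the mouse number as a replicate block, no fold threshold and each library left out.

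Genes named are collagens called or without overlap between groups, the 4 most abundant of each class, and of the partner lists those called, the 3 most abundant and the 2 largest fold changes without overlap. Col25a1, Col15a1, Col4a3, Col4a5, Col4a6, Col6a4, Col6a5, Col9a2, Col5a1, Col11a2, Col24a1 and Col26a1 are named outside that rule, after their values were seen. One partner gene that the rule names is not reported here. The members, lists and chain pairs were chosen with earlier results of these data known. Figures were drawn with matplotlib 3.10.9.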

Additional observations from a re-analysis of the deposited data

Results flagged for a closer look

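In the 4 WT libraries, 4 of 51 sets of values had 1 library far from the other libraries, measured as its gap to the nearest one over the whole range, where chance gives about 1 in 20. For Ppib, a folding enzyme, WT M1 stood apart on log2 CPM with a gap of 0.985 of the range. For the Col4a1 to Col4a2 ratio it was WT F3, with 0.83, and for the Col4a5 to Col4a6 ratio WT M1, with 0.862. WT M1 also stood apart for the Col9a3 to Col9a1 ratio, with 0.892, where its ratio was 64.4 against 23.2 to 25.9 in the WT females. The WT group holds 1 male, so the mouse and its sex cannot be told apart.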

How the results depend on the processing

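The count of collagen genes called, 0 by edgeR, was 5 by DESeq2's Wald test and 0 to 2 as each library was left out. The count with an unadjusted p under 0.05 was 8, 13 by DESeq2, 16 by limma's voom and 4 to 21 as each library was left out. Over all genes, 2293 were higher and 1796 lower at that p by edgeR. By DESeq2 2683 were higher and 2174 lower, and by voom 2858 and 2361, so those counts grew as well. The count of partner genes called was 1, 8 by DESeq2, 0 with the replicate block and 0 to 3 as each library was left out. Beside both counts called, edgeR called 40 of all genes, DESeq2 1831, the replicate block 0 and the runs with a library left out 11 to 485. The median log2 fold change of the basement and Bruch membrane collagens, 0.12, ran from 0.027 to 0.32 in those runs. Over females only, the log2 fold change was 0.019 for Col18a1 and −0.15 for Col10a1, against −0.08 and 0.78. As each library was left out, log2 fold changes crossed 0 for Col8a1 (−0.65 to 0.048), Col18a1 (−0.21 to 0.020), Col6a6 (−0.42 to 0.52), Col23a1 (−0.036 to 0.26), Ppib (−0.010 to 0.11), Loxl1 (−0.36 to 0.017) and Ddr2 (−0.27 to 0.27), none of them called. The causes were not tested. With the mouse number as a replicate block, 0 collagen genes were called and 11 had an unadjusted p under 0.05. WT F2, WT M1 and LC3b-/- M have no partner of the same number, so only F1 and F3 set the genotype difference there. That run called 0 of all 16990 genes, so the 0 is not particular to collagens. At an unadjusted p under 0.05 it had 1611 of all genes higher and 1278 lower. Deviations of same-numbered mice correlated at 0.146 for F1 and 0.243 for F3 over 16990 genes, and with 2 such pairs the numbers are not shown to pair the mice. Depth limits the low genes, since Col6a4 had at most 21 counts in a library and Col26a1 at most 22.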
